A study of Mus musculus with 6 samples.

Results

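AML12 is a clonal, immortal line of mouse hepatocytes that was derived from the liver of a mouse carrying a human transforming growth factor alpha transgene. In the series, AML12 cells were given a construct with the open reading frame of the transcription factor Zac1 or, as the control, of EGFP, a fluorescent protein, and polyA RNA was sequenced after 24 h. The libraries described here are the 3 EGFP controls (EGFP 1, 2 and 3) of 6 libraries in all, chosen by their column labels. The libraries of the other 3 samples were not used, and no contrast between the groups was made. All 3 EGFP libraries therefore come from transfected cells of 1 line that carries the transgene, with no untransfected sample beside them. Nothing in the labels says that they came from separate cultures, so each SD given here measures the spread between 3 libraries, which may be technical.

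Hepatocytes carry out most of the chemistry of the liver. They secrete albumin, clotting factors and lipoproteins into blood, make bile acids, detoxify drugs with cytochrome P450 enzymes, dispose of ammonia through the urea cycle and make glucose during fasting. A small set of transcription factors, led by HNF4A, the FOXA proteins and C/EBP alpha, drives these genes in adult liver. Hepatocytes placed in culture are known to keep some of these functions and to lose others, so the question here is which liver genes a widely used hepatocyte line reads, at what level, and beside which genes of other cell types.

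The 3 libraries held 15145092, 14885966 and 14801240 reads assigned to genes. Levels are given on 2 scales. CPM is a gene's reads per 1000000 reads of its library, and TPM is the same share after the reads of each gene are divided by the length of its annotated exons, so that levels of different genes are compared in TPM only. A gene is called expressed here when it reached 1 CPM, about 15 reads, in each of the 3 libraries, low when it had reads but did not, and listed at 0 when it had 0 reads in all 3. By this rule 11135 of 49585 genes (22.5%) were expressed, 7978 were low and 30472 (61.5%) were listed at 0. Of 21734 protein-coding genes, 10607 (48.8%) were expressed and 7039 (32.4%) were listed at 0, and protein-coding genes held 98.7% of the reads. The median level of an expressed protein-coding gene was 31.9 TPM, which is the yardstick for the levels that follow. The shares of 48.8% and 32.4% are the yardstick for the counts of lists and families.

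A zero in these libraries has to be read with care. Among the genes listed at 0 are ones that every cell uses, such as the ribosomal protein genes Rpl13 and Rpl24, the respiratory chain genes Cox4i1, Cox17 and Ndufa13 and the mitochondrially encoded mt-Co2, mt-Co3, mt-Atp6 and mt-Nd3. Their neighbours mt-Co1 and mt-Cytb were at 16150.1 ± 748 and 10349 ± 427 TPM (SD, n = 3). Of protein-coding genes that share over 75% of their exon bases with another gene, 50.5% were listed at 0. The share at 0 was 33.5% of genes that share over 25% and up to 75%, 16.5% of those that share up to 25% and 37.3% of those that share none, so it did not follow the sharing in one direction. Sharing is 84.2% for Tomm6 and 58.2% for Etfb, both also listed at 0, but 0% for Mrpl2 and mt-Co2, and its part in the zeros was not tested. A gene with 0 reads is therefore described only as listed at 0, with no upper limit, and genes with a few reads carry the statements about low expression.

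The most abundant transcripts were those of protein synthesis, respiration, chaperones, iron storage and the cytoskeleton. The 10 genes with most reads held 4.46% ± 0.022 of all reads (SD, n = 3), the top 100 held 16.7% ± 0.0651 and the top 1000 held 50.1% ± 0.201, and 995 genes made up 50% of the reads. Eef1a1, the elongation factor that brings aminoacyl-tRNA to the ribosome, took the largest share, at 8153, 8322 and 8454 CPM in EGFP 1, 2 and 3. Ahnak, a giant scaffold protein of the cell cortex, was next at 7904, 6908 and 6817 CPM and was highest in EGFP 1. Its exons are long, and per length it fell to place 57 of the protein-coding genes, at 1351 ± 127 TPM. mt-Co1, a subunit of cytochrome oxidase, led the protein-coding genes per length at 16982, 15533 and 15935 TPM. Mitochondrially encoded genes together took 1.79% ± 0.0794 of the reads, and nuclear ribosomal protein genes took 3.48% ± 0.133. Both shares leave out genes listed at 0, among them mt-Co2, mt-Co3 and Rpl13. These were 6 of 13 protein-coding mitochondrially encoded genes and 4 of 83 protein-coding ribosomal protein genes. Neither share is therefore taken as a trait of the cells.

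The other genes among the 25 protein-coding genes with most reads fall into a few kinds. Chaperones were Hspa5 (3626 ± 157 CPM), the chief chaperone of the endoplasmic reticulum, its partner Hsp90b1 (2179 ± 46.3 CPM) and cytosolic Hsp90ab1 (3561 ± 71.7 CPM). Both ferritin chains, which store iron, were there, Fth1 at 3528 ± 48.5 CPM and Ftl1 at 1945 ± 101 CPM. Translation and nucleolar genes were Eef2, Tpt1, Eif4g2, Ncl, Rpl4 and Rplp0, from 1793 CPM for Rplp0 to 3163 CPM for Eef2. Respiratory chain genes were mt-Cytb, mt-Nd1 and mt-Nd5. The cytoskeleton and membrane were represented by Actb, Flna and Myof, cell adhesion by Ctnnb1, glycolysis by Pkm, and protein turnover by Nedd4, Rnf213 and Ddb1, all from 1772 to 2749 CPM. The only gene of another type among the 25 highest of all was Gm42418, annotated as a long non-coding RNA, at 2358 ± 110.1 CPM. Its exons overlap another annotated gene, on the opposite strand, over 99.5% of their bases. Which RNA its reads come from was not tested. No plasma protein was among these 25 genes, and of the plasma protein and apolipoprotein lists Apob had the most reads.

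The transcription factors of the hepatocyte were largely in place. Of 35 hepatocyte-enriched transcription factors and nuclear receptors, 29 (82.9%) were expressed, against 48.8% of all protein-coding genes, with a list median of 17.5 TPM. Hnf4a (ENSMUSG00000042950; GRCm38 chromosome 2, 163506808 to 163572910, plus strand), the master regulator of hepatocyte genes, was at 153, 163 and 150.3 TPM in EGFP 1, 2 and 3. Nr1h4, the bile acid receptor FXR, was higher still at 332, 305 and 302 TPM and led the 48 listed nuclear receptors. The spread between libraries was small for both, and each was several times the median expressed gene. The pioneer factor Foxa2 was at 93.6 ± 3.52 TPM and the endoderm factor Hhex at 92.5 ± 2.51, while Cebpa, a factor of the adult hepatocyte, was lower at 19.2, 23.1 and 22.3 TPM.

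Several of these factors have a paralog in the same list, and within the C/EBP and Onecut families the levels differed widely. Cebpb, the stress-responsive C/EBP, was at 163 ± 7.28 TPM against 21.5 ± 2.06 for Cebpa, and Onecut2 was at 45.1 ± 5.36 against 1.52 ± 0.173 for Onecut1. Foxa1 and Foxa3 were at 15.4 ± 1.1 and 5.93 ± 0.433 TPM. Factors expressed at 17.5 to 151 TPM were Xbp1, Cebpg, Esrra, Klf15, Rxra, the liver X receptor gene Nr1h3, Gata6, Gata4, Nfib and Tef, and those below them were Prox1, Nfia and Ppara, at 11.4 to 14.4 TPM, and Nr5a2, the pregnane X receptor gene Nr1i2, Cebpd and Dbp, at 1.73 to 3.28 TPM. Creb3l3, Hnf4g, Nr0b2 (the FXR target SHP) and Hlf were low, at 0.0124 to 1.02 TPM. Tbx3 and Nr1i3, the drug receptor CAR, were listed at 0.

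**Figure D1:**
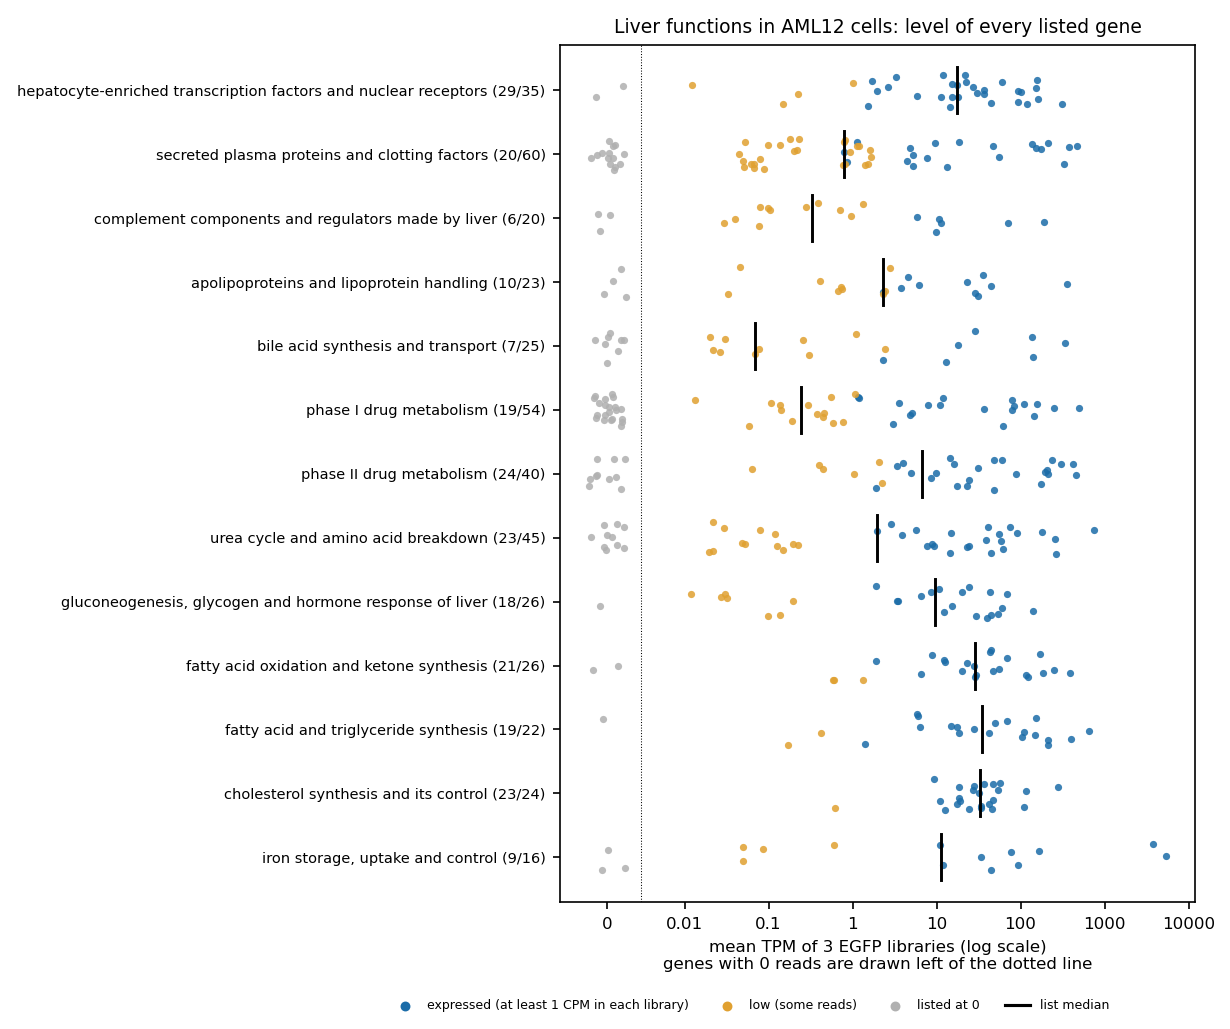
Mean TPM over the 3 EGFP libraries (horizontal, log scale) of every listed gene in 13 groups of liver functions; each point is a gene, coloured by its class, the black bar is the list median and the numbers give expressed genes of all genes in the list. Transcription factors and the lipid lists sit mostly to the right, with 29 of 35 and 23 of 24 genes expressed for the factors and cholesterol synthesis, while bile acid, complement and plasma protein genes spread down to 0.

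Secreted plasma proteins were a mixture. Of 60 listed, 20 (33.3%) were expressed, 26 were low and 14 (23.3%) were listed at 0, with a median of 0.784 TPM. Over all protein-coding genes, 48.8% were expressed and 32.4% were listed at 0. Gc, the vitamin D carrier, was at 472, 457 and 481 TPM in EGFP 1, 2 and 3. Rbp4, the retinol carrier, was at 321, 406 and 402 TPM and was lowest in EGFP 1, and Ambp, the bikunin precursor, was at 333 ± 18.7. These carriers were each several times as high as albumin. Ttr, which carries thyroxine, was at 212 ± 7.49 TPM, and Itih2, Hpx and Cp, of the matrix-binding inhibitor family, haem transport and copper transport, were at 176 ± 10.8, 152 ± 3.32 and 135 ± 3.58. Alb (ENSMUSG00000029368; GRCm38 chromosome 5, 90460897 to 90476602, plus strand), the most abundant plasma protein in the animal, was at 56.6, 52.6 and 56.2 TPM, place 3564 of the protein-coding genes. The coagulation inhibitors Proc and Pros1 were at 46.8 ± 5.55 and 18.6 ± 1.26 TPM, haptoglobin (Hp) at 13.4 ± 1.59, and Serpind1, Apcs, Agt, Orm1, Vtn, Igfals, Pzp, Serpinc1 and Igf1 were expressed between 0.798 and 9.66 TPM.

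Most clotting genes and several other plasma protein genes were low. Of the 3 fibrinogen chain genes, Fga had 4, 13 and 11 reads in EGFP 1, 2 and 3, Fgb had 16, 13 and 8, while Fgg had 0, 1 and 1. F2 (prothrombin), F5, F7, F10, F11, F13b, Plg, Ahsg, Fetub, Itih3, Itih4, Kng1, Kng2, Serpinf2, Cpb2, Afm and Saa1 were low as well, at no more than 1.64 TPM. Transferrin (Trf) had 2 reads in all, with 63.5% of its exon bases shared with other genes. Serpina1a, Serpina1b, Serpina1c and Serpina1e, near-identical copies of the alpha-1 antitrypsin gene between which reads cannot be divided with certainty, were between 0.0518 and 1.68 TPM. Listed at 0 were Serpina1d, Serpina3k, Serpina6, F9, F12, Orm2, A1bg, Itih1, Saa2, Saa4, Hrg, Mug1, Mup3 and Mup20. Liver complement genes divided the same way. C3, the central component, was at 167, 197 and 202 TPM, lowest in EGFP 1, and Cfi, which inactivates it, was at 71.5 ± 4.79. Masp1, C4bp, C4b and C1ra were expressed at 5.92 to 11.3 TPM, 11 of the 20 listed were low, and C6, C8a and C8b were listed at 0. Of the 20, 30% were expressed and 15% were listed at 0, against 48.8% and 32.4% of all protein-coding genes.

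The listed lipoprotein genes were led by a single one. Clu (clusterin, or apolipoprotein J) was in neither this list nor the plasma protein list. Its level, 1607 ± 77.6 CPM and 1745 ± 65.7 TPM, was above that of every gene in both. Apob (GRCm38 chromosome 12, 7977648 to 8016835, plus strand), the structural protein of very low density lipoproteins, had 1516, 1261 and 1278 CPM and 411, 335 and 341 TPM in EGFP 1, 2 and 3, and was highest in EGFP 1. Apoe, which directs the uptake of lipoprotein remnants, was at 36 ± 2.03 TPM, and the lipase inhibitor Angptl4 at 29.1 ± 0.468. Scarb1, Abca1, the lipid loader Mttp, Apof and Lrp1 were expressed at 2.3 to 23.3 TPM. Apoa1, the main protein of high density lipoproteins, had 15, 13 and 14 reads and was low at 2.83 ± 0.208 TPM. Apoa2, Apoc2, Apoc3 and Apoc4 were listed at 0.

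The synthesis of lipids was among the fullest of the liver functions. Of 24 genes of cholesterol synthesis and its control, 23 (95.8%) were expressed, against 48.8% of all protein-coding genes. Of these 24 genes, 0 were listed at 0, and the median was 32.8 TPM. Ebp, a sterol isomerase, led at 277 ± 5.34 TPM, with Srebf2, the transcription factor that answers to low sterol, at 116 ± 7.92. Hmgcs1, Scap and Msmo1 were at 56.3 ± 6.96, 53.3 ± 2.23 and 46.6 ± 9.05 TPM. The exception was Fdps, low at 0.613 ± 0.0314 TPM, 26.7% of whose exon bases are shared with other genes. Fatty acid and triglyceride synthesis had 19 of 22 genes (86.4%) expressed, against the same 48.8%. Scd2, a stearoyl-CoA desaturase, was at 788, 596 and 599.8 TPM, far above Scd1, the desaturase typical of liver, at 53.1, 36.9 and 36.7. Both were highest in EGFP 1. Malic enzyme (Me1) was at 400.0 ± 34.7 TPM, Acly at 213 ± 9.11, Fads1 at 211 ± 15.4, Elovl5 at 154 ± 11.3 and fatty acid synthase (Fasn) at 148 ± 14.9. Lpin2 was listed at 0.

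Fatty acid oxidation was also well represented, with 21 of 26 genes (80.8%) expressed, against 48.8% of all protein-coding genes. The dehydrogenase Acadl was at 389 ± 18.2 TPM, the electron carrier Etfa at 253 ± 12.8 and Cpt1a, the gatekeeper of mitochondrial entry, at 169 ± 5.63. Acadvl and Acaa2 were at 123 ± 9.22 and 117 ± 2.99 TPM. Bdh1, which makes the ketone body hydroxybutyrate, was low at 0.579 ± 0.131 TPM. Etfb, the partner of Etfa, and the fasting hormone Fgf21 were listed at 0.

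Among bile acid genes the transporters of the Abcc family had the highest levels. Abcc4 was at 342, 319 and 340.1 TPM in EGFP 1, 2 and 3, Abcc3 at 140.4 ± 6.34 and the canalicular pump Abcc2 at 137 ± 11.1. Of the synthetic enzymes, Acox2, Cyp27a1, Amacr and Akr1d1 were expressed at 2.33 to 29 TPM. Cyp7a1, the rate-limiting enzyme of the classical pathway, had 1 read in the 3 libraries together, and Cyp8b1 was listed at 0. Other exporters were low: the canalicular bile salt pump Abcb11 was at 0.307 ± 0.229 TPM, the phospholipid exporter Abcb4 and the sterol exporters Abcg5 and Abcg8 were between 0.0221 and 0.0305, and Slc51b was at 2.46 ± 1.53. The uptake carriers of the sinusoid Slc10a1, Slco1a1, Slco1a4, Slco1b2 and Slco2b1 were listed at 0, as were Slc51a and Hsd3b7, the latter with 99.0% of its exon bases shared with other genes. Of the 25 listed genes, 7 (28%) were expressed and 8 (32%) were listed at 0. Over all protein-coding genes these shares were 48.8% and 32.4%, so the share at 0 was near the general one.

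The genes of drug metabolism were read in part. Of 54 phase I genes, which oxidise or hydrolyse, 19 (35.2%) were expressed and 21 (38.9%) were listed at 0. Of 40 phase II genes, which attach a polar group, 24 (60%) were expressed. The share of all protein-coding genes, 48.8%, lies between these, and the difference between the lists was not tested. Aldh1a1, a retinaldehyde dehydrogenase, was at 599, 455 and 449 TPM and highest in EGFP 1, the epoxide hydrolase Ephx1 was at 253 ± 19.9, P450 reductase (Por) at 157 ± 1.48, Aldh2 at 145 ± 10.9 and Adh5 at 84.6 ± 0.453. Among cytochrome P450 genes of these lists, Cyp3a13 was highest at 99.7, 109.5 and 118 TPM, and Cyp1a1, the target of the dioxin receptor, was at 68.6, 59.6 and 55.6. The P450 genes typical of adult mouse liver were low or listed at 0: Cyp2c29 and Cyp1a2 were at 0.761 ± 0.338 and 0.578 ± 0.355 TPM, and Cyp2e1, Cyp3a11, Cyp3a25, Cyp2b10, Cyp2f2, Cyp4a10, Cyp4a14 and members of the Cyp2a, Cyp2c and Cyp2d groups were at 0. The others at 0 were Cyp2b9, Cyp3a41a, Cyp3a44, Ces1c and Ces1d. Over the whole family, 16 of 98 protein-coding P450 genes were expressed, with Cyp20a1 at 129.8 ± 5.39 TPM and Cyp39a1, which hydroxylates an oxysterol, at 74.2 ± 5.77.

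Glutathione transferases led the phase II genes. Gstp1 was at 452 ± 35.1 TPM, Gsto1 at 426 ± 17, Gsta3 at 306 ± 8.08, Gstm1 at 236 ± 5.93 and Gsta4 at 209 ± 27.7. Gstp1 and Gsto1 had no overlap with the other 3. Sulfotransferases reached 24.7 ± 2.26 TPM for Sult1c2, and glucuronosyltransferases 48.5 ± 6.91 TPM for Ugt2b34. Only 3 of 22 glucuronosyltransferase genes (13.6%) were expressed and 14 (63.6%) were listed at 0, against 48.8% and 32.4% of all protein-coding genes. Among those at 0 was Ugt1a1, which conjugates bilirubin and shares 82.7% of its exon bases with other genes. Ugt1a6a, Ugt2b1, Ugt2b37, Ugt2b38, Ugt3a1, Sult2a8, Sult5a1, Nat1 and Inmt were at 0 too. All 13 genes listed as NRF2 targets and glutathione genes were expressed, against 48.8% of all protein-coding genes. The list also holds Keap1 and Nfe2l2, the gene of NRF2 itself, and NRF2 activity was not measured. Gclc, which starts glutathione synthesis, was at 1795, 1607 and 1632 TPM, and Prdx1, Txn1 and Gsr were at 1191 ± 73.8, 849 ± 39.2 and 796 ± 36.9, while Nqo1 was the lowest of the list at 34.7 ± 3.42.

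The urea cycle was nearly unread at its start. Cps1, which fixes ammonia, had 1, 5 and 2 reads in EGFP 1, 2 and 3, Otc had 0, 0 and 1 and Arg1, which releases urea, had 3, 1 and 2. The middle steps Ass1 and Asl, which other tissues also use, were expressed at 9.42 ± 1.06 and 24.5 ± 3.19 TPM. Glycine cleavage stood out instead: Gldc was at 779.9, 719 and 723 TPM, the highest of the 45 urea cycle and amino acid genes, while Amt, another subunit of that complex, was at 2.9 ± 0.654. Got1, Glul (glutamine synthetase), Pcbd1, Got2 and Cth were at 263 ± 11, 258 ± 6.17, 182 ± 5.55, 91.5 ± 7.76 and 75.7 ± 5.68 TPM. Tdo2, which opens tryptophan breakdown, had 1 read in all. Oat, Tat, Hpd, Uroc1, Afmid, Kynu, Haao, Sds, Bhmt and Aldh4a1 were listed at 0, and 46.6% and 32.5% of the exon bases of Afmid and Aldh4a1 are shared with other genes.

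Glucose handling kept the sensors and transport genes and had few reads of the fasting enzymes. Slc2a2, the liver glucose transporter, was at 39.8, 46.3 and 46.8 TPM, Slc37a4, the carrier of glucose 6-phosphate, at 39.6 ± 3.5 and ketohexokinase (Khk) at 29.6 ± 2.28. The dedicated enzymes of gluconeogenesis had a few reads at most: Pck1 had 4, 2 and 2 in EGFP 1, 2 and 3, G6pc had 0, 1 and 3, while Fbp1 had 0, 0 and 2. Ugp2 was at 142 ± 11.8 TPM, the insulin signalling gene Irs2 at 68.1 ± 2.11, and the insulin receptor (Insr) at 24.3 ± 0.825, while the glucagon receptor (Gcgr) had 0, 0 and 1 reads. Iron genes beside ferritin were Tfrc (167 ± 22.9 TPM), Aco1 (92.2 ± 2.52), Ireb2 (77.9 ± 4.09) and the exporter Slc40a1 (44.3 ± 2.02). Hepcidin (Hamp), the iron hormone of liver, had 0, 2 and 1 reads, and Hamp2, Hfe2 and Heph were listed at 0. In the liver lobule some genes belong to the portal end and others to the central vein. Expressed were 7 of 16 periportal (43.8%) and 6 of 18 pericentral genes (33.3%), against 48.8% of all protein-coding genes. The shares listed at 0 were 18.8% and 27.8%, against 32.4%. Glul and the Wnt feedback genes Znrf3 and Rnf43 (24.1 ± 0.678 and 22.4 ± 1.16 TPM) were expressed among the pericentral genes, while Lgr5 had 2, 0 and 1 reads, Axin2 was low at 0.438 ± 0.13 TPM, and Cyp2e1, Oat, Tbx3, Slco1b2 and Cyp2c37 were at 0.

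Many steps of metabolism are run by 1 form of an enzyme in adult liver and by another in fetal liver or other tissues. Of 19 such steps, 2 had a form listed at 0 (Gys2 and Ldhb) and gave no order. In 14 of the other 17 the other form was higher per length, in 3 the adult liver form was, and in 16 the ranges over the 3 libraries did not overlap. Pyruvate kinase was mostly Pkm, at 1721, 1520.5 and 1427 TPM, with Pklr at 42.9, 44.8 and 42.1, so that the other form was 36-fold higher. The same order held for Mat2a (370.1 ± 26.9 TPM) over Mat1a (1.97 ± 0.289), the enzymes that make the methyl donor S-adenosylmethionine, a ratio of 188. Liver glycogen phosphorylase (Pygl) had 1 read in all, beside Pygb at 41.3 ± 2.43 and Pygm at 10.5 ± 0.793. Gys2 was listed at 0 beside Gys1 at 24.2 ± 1.53 TPM.

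The remaining steps with more of the other form included large and small gaps. Mitochondrial Pck2 (59.7 ± 10.3 TPM) exceeded Pck1 (0.194 ± 0.0838), Acaca (27.7 ± 2.1) exceeded Acacb (0.173 ± 0.122), Fabp5 (37.1 ± 0.937) exceeded Fabp1 (0.602 ± 0.26) and Adh5 exceeded Adh1 (0.559 ± 0.0035). Gaps were smaller for Tfrc over Tfr2 (11 ± 1.31 TPM) and for Gpt2 (44.1 ± 4.89) over Gpt (14.7 ± 2.24). The smallest was in glucose transport, with Slc2a1 at 74.1, 67.4 and 69.4 TPM over Slc2a2, and in CPM, which does not correct for length, that order turned, with 66 ± 2.49 for Slc2a1 and 68.4 ± 6.65 for Slc2a2. Of lactate dehydrogenase, Ldha was at 933 ± 55.8 TPM and Ldhb was listed at 0. The adult liver form was higher for the aspartate-glutamate carrier, with Slc25a13 (61.9 ± 7.76 TPM) over Slc25a12 (19.6 ± 0.574), and for connexins, with Gjb1 (19.1 ± 1.07) over Gja1 (2.54 ± 0.377) and Gjb2 low at 0.277 ± 0.0585. Arg1 and Arg2 were both low and overlapped.

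**Figure D2:**
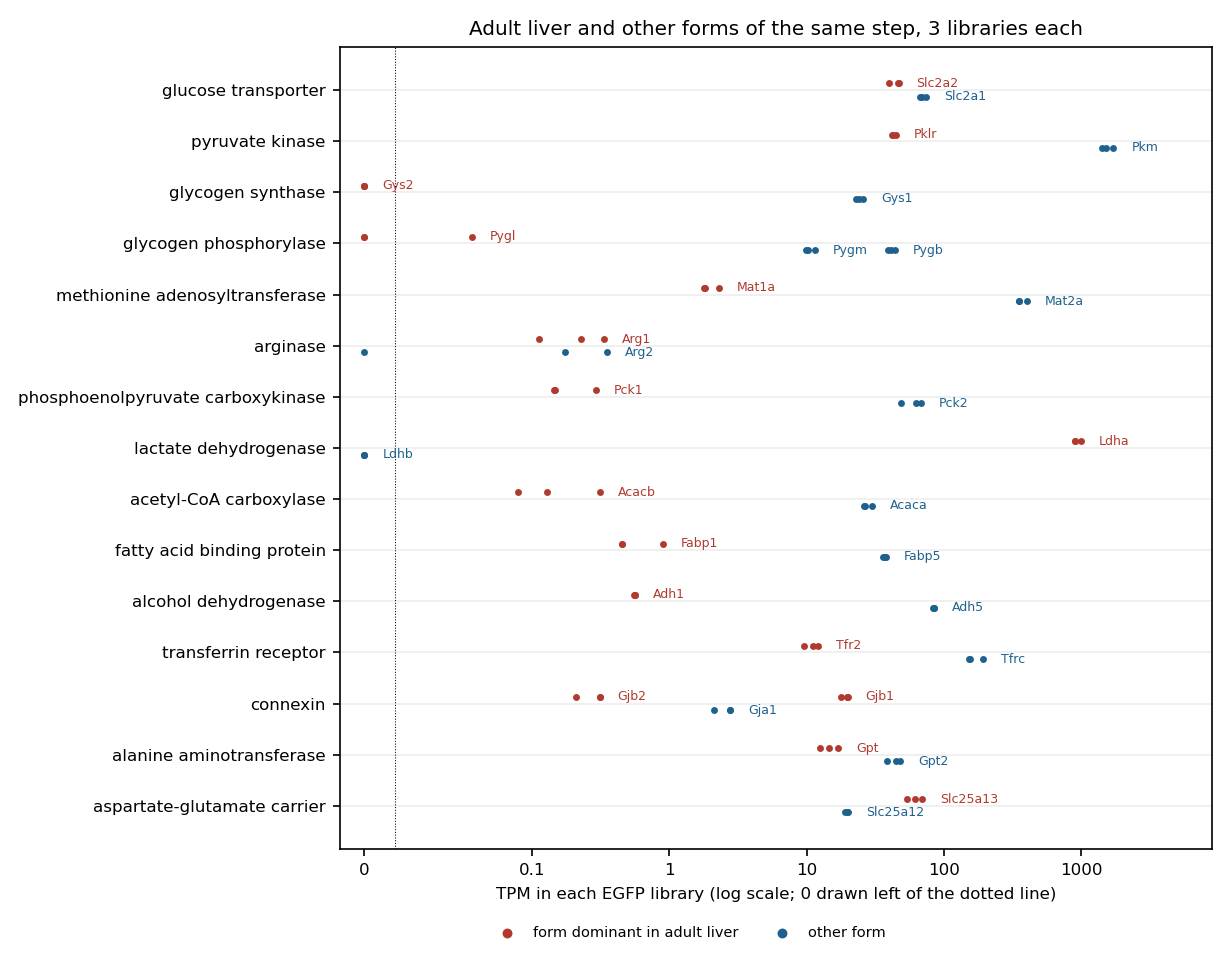
TPM in each of the 3 EGFP libraries (horizontal, log scale) for the adult liver form (red) and the other form or forms (blue) of 15 of the 19 metabolic steps; each point is 1 library. The blue points lie to the right in 10 of the 13 steps drawn that had reads for both forms, and the libraries of a gene lie close together except where it has only a few reads.

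Genes of the fetal liver were read in part, and those of cell division throughout. Of 18 fetal liver and hepatoblast genes 12 (66.7%) were expressed, against 48.8% of all protein-coding genes. Afp, the fetal counterpart of albumin, was at 1.7, 1.92 and 1.49 TPM in EGFP 1, 2 and 3, above the 1 CPM threshold but far below Alb. Higher members were Pkm, Aldoa (852 ± 35.6 TPM), Cd24a (529 ± 53.6 TPM), Peg3 (409.9, 394 and 395), an imprinted zinc-finger gene, and the chromatin proteins Hmga1 (303 ± 17.6) and Hmga2 (245, 247 and 267), followed by Sox4 (221 ± 6.35) and the RNA-binding proteins Igf2bp1, Igf2bp2 and Igf2bp3 (24.9 to 50.2 TPM). Pkm and Aldoa are also counted among the other forms of the isozyme steps. H19 and Lin28b were low, and Igf2, Dlk1 and Gpc3 were listed at 0. All 23 listed cell division genes were expressed, with a median of 191.6 TPM. Cyclin D1 (Ccnd1) was at 1254, 1264 and 1236 TPM, and the proliferation marker Mki67 and the replication genes Rrm2, Mcm6, Pcna and Top2a were at 269 ± 19.3, 500.0 ± 21.3, 371 ± 10.1, 303 ± 27.1 and 299 ± 9.1. Of 12 listed genes of cell cycle inhibitors and the p53 axis, 11 (91.7%) were expressed, against 48.8% of all protein-coding genes. The p53 targets Ccng1, Mdm2 and Cdkn1a were at 694 ± 34.3, 403 ± 25.3 and 196 ± 5.97 TPM, Trp53 itself at 196 ± 5.56 and Bax at 248 ± 3.47. Cdkn2a and Cdkn2b, which are often lost from immortal lines, were both read, Cdkn2a at 33.2, 37.5 and 45.1 TPM and Cdkn2b at 38, 34.1 and 34.9.

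Receptors for growth factors that act on hepatocytes were expressed. Met was at 263, 259.6 and 265 TPM, Egfr at 93.4 ± 4.27, Fgfr4 at 92.7 ± 1.37, Tgfbr1 at 212 ± 11.7 and the cytokine receptors Ifngr1 and Tnfrsf1a at 159.6 ± 7.89 and 155 ± 8.76. The mouse Tgfa gene was at 121, 123 and 116 TPM and the related ligands Areg and Hbegf at 65.9 ± 6.62 and 29.8 ± 2.21; whether reads of the human transgene are counted among those of Tgfa was not tested. Hgf, the ligand of Met, Fgfr1 and Prlr were listed at 0. Metallothioneins, which bind zinc and copper, were at 1073, 1568 and 1202 TPM for Mt2, 73.5% of whose exon bases are shared with another gene, and at 375, 531 and 378 for Mt1, and both were highest in EGFP 2. Of 10 metallothionein and glucocorticoid-response genes 9 were expressed, against 48.8% of all protein-coding genes. Sgk1, Fkbp5, Tsc22d3 and the receptor Nr3c1 were among these 9, at 211 ± 7.56, 164 ± 3.5, 128 ± 4.69 and 72.4 ± 2.29 TPM.

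Epithelial genes were among the highest of the lineage markers. Of 31 epithelial genes 20 (64.5%) were expressed, against 48.8% of all protein-coding genes. Krt18 (ENSMUSG00000023043; GRCm38 chromosome 15, 102028180 to 102032027, plus strand) and Krt8, the keratin pair of simple epithelia and of hepatocytes, led the list. Krt18 was at 3827, 4393 and 4067 TPM in EGFP 1, 2 and 3, place 10 of the protein-coding genes, while Krt8 was at 3078, 3619.6 and 3278, place 18. Both were lowest in EGFP 1. E-cadherin (Cdh1) was at 229.6, 228 and 230.1 TPM, and the tight junction gene Cldn2 at 635 ± 16. Ctnnb1, Ctnna1, Tjp1, F11r, Dsg2, Cldn12, Jup, Dsp, Cgn, Pkp2, Esrp2, Crb3 and Marveld2 were expressed between 4.48 and 1409 TPM. Tjp3, Dsc2, Cldn14, Ocln, Ovol1, Cldn1 and Grhl2 were low and Cldn3, Marveld3 and Esrp1 were at 0.

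A few markers of bile duct cells were read at high levels. Of 22, 12 (54.5%) were expressed, near the 48.8% of all protein-coding genes, and the list median was 1.91 TPM. Spp1 (osteopontin) was at 703, 700.0 and 701 TPM and Krt19 at 539.6, 536 and 475, both far above albumin, and Sox9, which marks duct and progenitor cells, was at 76.8, 80 and 79.9. The anion exchanger Slc4a2 was at 61.8 ± 2.03 TPM, and Pkhd1, Krt7, Elf3, Itgb4, St14, Cftr and Onecut1 between 1.52 and 21.8. Other duct and progenitor markers had few reads: Epcam had 0, 0 and 1 and Prom1 3, 0 and 0 in EGFP 1, 2 and 3, Aqp1, Ggt1, Muc1, Krt23 and Sctr were low, and Cldn4 and Cldn7 were at 0. The keratin family shows the same selection, with 7 of 49 protein-coding keratin genes expressed. After Krt18 and Krt8 the highest was Krt20, a keratin of gut epithelium, at 724, 702 and 685 TPM, above Krt19.

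Of 28 mesenchymal genes 16 (57.1%) were expressed, near the 48.8% of all protein-coding genes, with a list median of 8.19 TPM. Lgals1, S100a6, Ccn2 and Tagln2 were at 1901 ± 159, 1899.8 ± 235, 1347 ± 23.9 and 965 ± 43.4 TPM, and the filament protein vimentin (Vim) at 879, 899 and 899. Tpm1, Fn1, Ccn1, N-cadherin (Cdh2), which hepatocytes also carry, and Sparc were at 310.4 ± 10, 244 ± 2.65, 124 ± 9.81, 95 ± 1.82 and 85.8 ± 3.43 TPM. Of the factors that repress epithelial genes, Snai2 was at 50.6, 55.4 and 67.3 TPM, Zeb1 at 25 ± 0.805, Twist2 at 6.87 ± 0.367 and Zeb2 at 2.25 ± 0.345, and Snai1 was low at 2.31 ± 0.862. Thbs1 was at 9.51 ± 0.662 TPM. The contractile and fibroblast genes were low or at 0: Tagln, S100a4, Postn, Cnn1, Myl9, Tpm2, Cdh11 and Prrx1 were between 0.0151 and 1.3 TPM, and Acta2, Twist1 and Thy1 were at 0.

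Few markers of the other cells of the liver were expressed, 0% to 20% of each list, against 48.8% of all protein-coding genes. Of 20 stellate cell and fibroblast markers 1 was expressed, with a summed level of the list of 35.9 to 39.7 CPM, and Col1a1 and Col1a2 were low at 0.368 ± 0.147 and 0.0268 ± 0.0464 TPM. Pdgfra, Pdgfrb, Lrat, Reln, Hand2, Cygb, Dcn, Lum, Col3a1, Mmp2 and Rgs5 were at 0. Of 20 endothelial markers 4 were expressed, Flt4 (27.9, 28.6 and 27.4 TPM), Oit3, Stab1 and Flt1, with a summed level of 76.7 to 82.2 CPM, whereas Pecam1 and Cdh5 were low at 0.227 ± 0.0916 and 0.0198 ± 0.0343 TPM and Tie1, Lyve1, Clec4g, Clec14a, Gpr182, Emcn and Robo4 were at 0. Of 18 macrophage markers 3 were expressed, led by Cd14 (103, 110.2 and 105 TPM) and Mpeg1 (10.6, 17.8 and 16.1, lowest in EGFP 1), while Csf1r, Adgre1, Clec4f, Timd4, Vsig4, Marco, Cd5l, C1qa, C1qb, C1qc, Itgam, Tyrobp and Aif1 were at 0. None of 16 leukocyte and 0 of 11 red cell and platelet markers were expressed, with summed levels of 1.28 to 2.11 and 0.396 to 0.672 CPM, and Ptprc (CD45) had 15, 11 and 5 reads. In bulk RNA, fewer cells of a type and less RNA per cell cannot be told apart.

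Outside the liver, at most 20% of a list was expressed, against 48.8% of all protein-coding genes. Single genes were expressed while the sets were not. They were Tnnt2, a cardiac troponin (20.3 ± 2 TPM), of 12 muscle markers, Pparg (18.5 ± 0.511) of 8 fat cell markers, Vil1 (27.3 ± 3.18) and Muc2 (0.666 ± 0.101) of 14 gut and pancreas markers, Pax2 (10.2 ± 0.985) and Pax8 (1.5 ± 0.616) of 10 kidney markers, and Syt1 (2.21 ± 0.31) and Map2 (1.69 ± 0.232) of 12 neuron markers. None of 11 germ cell and pluripotency markers was expressed. At 0.5 CPM in each library the neuron count was 4, and at 5 CPM it was 1.

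**Figure D3:**
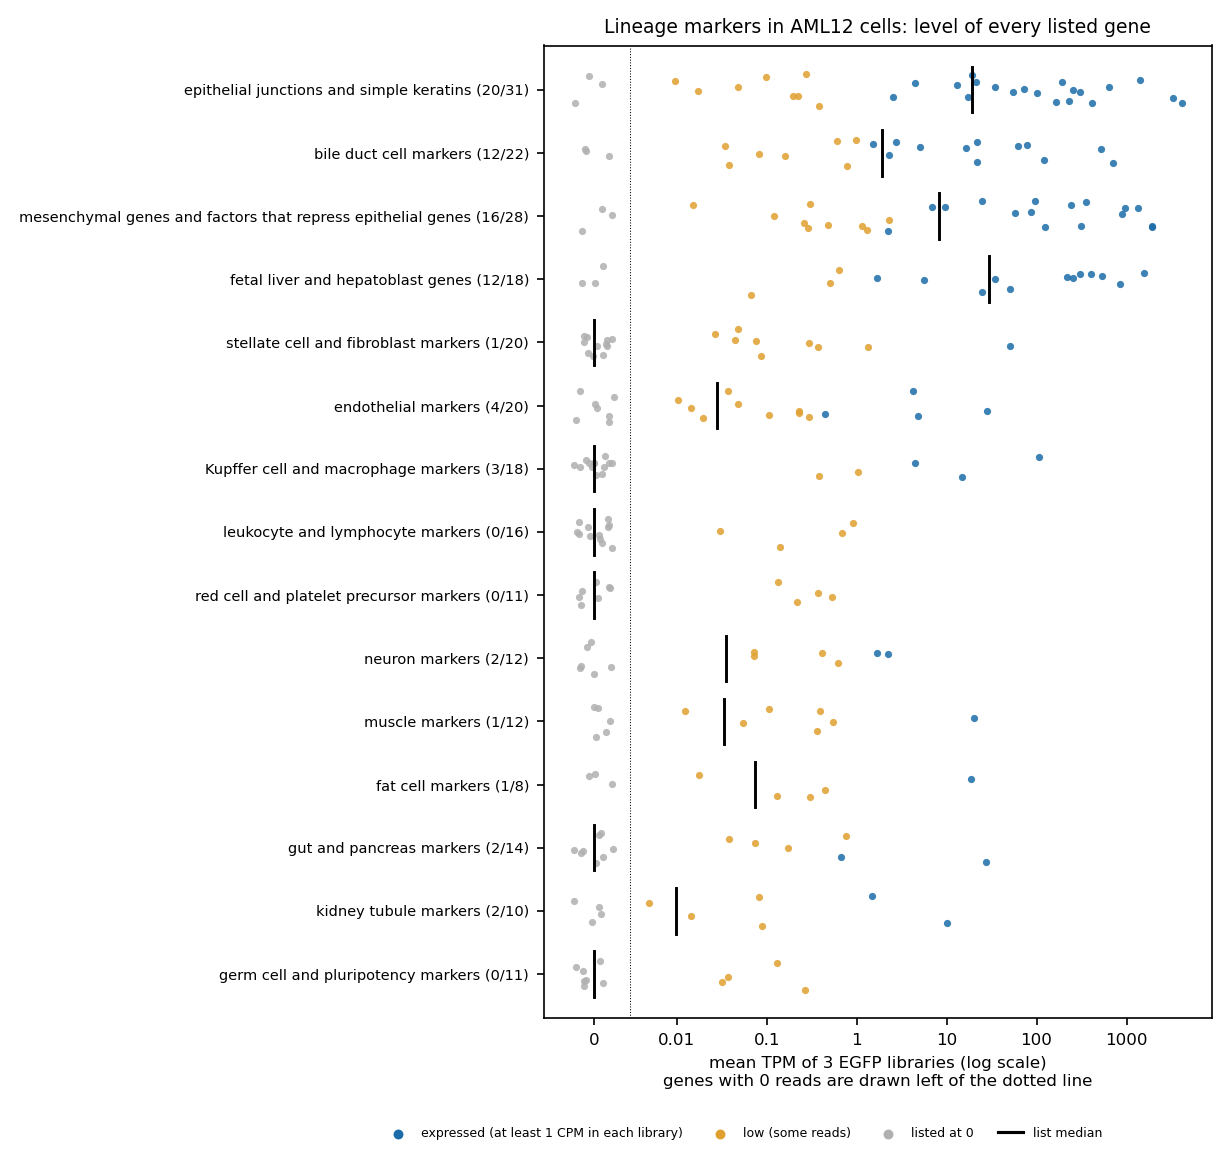
Mean TPM over the 3 EGFP libraries (horizontal, log scale) of every marker in 15 lineage lists; each point is a gene, coloured by its class, the black bar is the list median and the numbers give expressed genes of all genes in the list. Epithelial, duct, mesenchymal and fetal lists reach above 500 TPM, whereas the lists of other liver cells and other organs lie mostly below 1 TPM with 1 to 4 exceptions where any gene was expressed.

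Whole gene families lay almost entirely at or near 0. Of 1134 protein-coding olfactory receptor genes 1080 (95.2%) were listed at 0 and 1 was expressed, Olfr56, at 1.19, 1.61 and 1.28 CPM. Of 293 vomeronasal receptor genes 280 (95.6%) were at 0 and 1 was expressed, Vmn2r79, at 1.54 ± 0.151 CPM; neither reached 5 CPM. Of 388 immunoglobulin segments 387 (99.7%) were at 0, and the shares were 92.9% of keratin-associated proteins, 95.3% of defensins and 95.5% of major urinary proteins. The last are secreted by adult mouse liver in large amounts, and of 22 genes only Mup6 had reads, 2, 0 and 0 in EGFP 1, 2 and 3. The major urinary protein genes are close copies, between which reads cannot be divided with certainty, and its part in these zeros was not tested. Against the 32.4% of all protein-coding genes, Hox genes (25 of 39) and protocadherins (61 of 69) were also mostly at 0. Families of every cell lay at the other end: 78 of 83 protein-coding ribosomal protein genes, 37 of 39 proteasome genes and 35 of 37 nuclear genes of complex I were expressed. Of all protein-coding genes 48.8% were expressed.

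Families with a tissue pattern lay between, with few members holding most of the level. Their counts stand beside the 48.8% of all protein-coding genes that were expressed. Of 23 claudins 3 were expressed, Cldn2, Cldn12 and Cldn18, the last at 1.61 ± 0.251 TPM. Of 44 collagens 12 (27.3%) were expressed, and the leading ones were those of basement membranes, Col18a1 at 183, 212 and 184 TPM and Col4a1 and Col4a2 at 131 ± 4.4 and 130.1 ± 5.4. Integrins were led by Itgb1 (1010.3 ± 65.3 TPM) and Itga3 (389 ± 4.66), whose products together bind laminin. Clade A serpins, which include the main plasma inhibitors, had 0 of 24 protein-coding genes expressed, while clade B, the intracellular serpins, had 6 of 26, led by Serpinb6a at 277 ± 16.8 TPM.

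**Figure D4:**
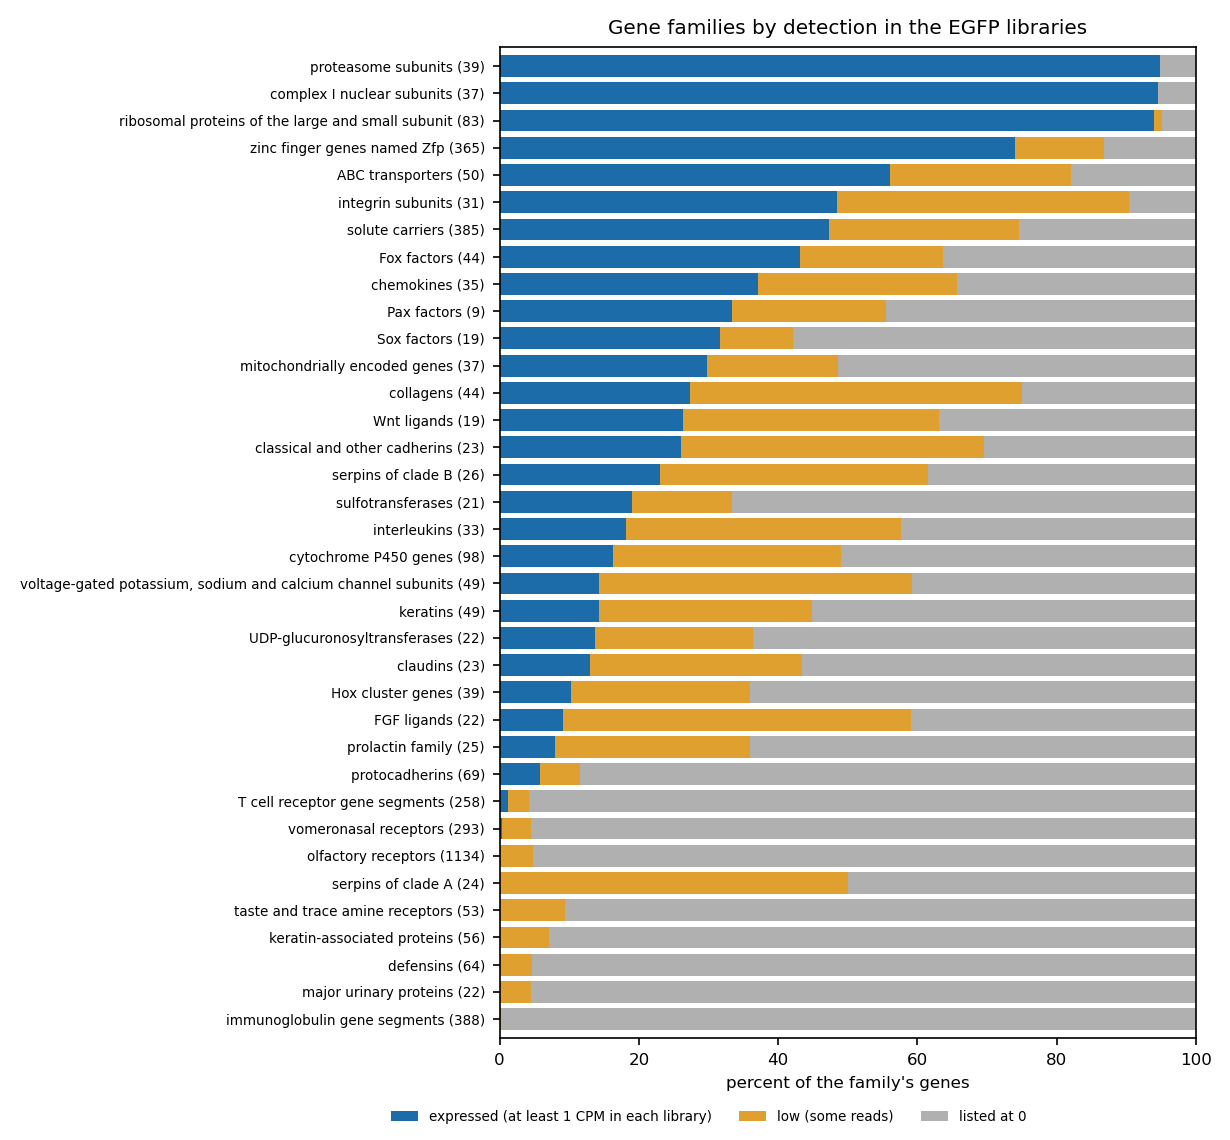
Share of each family's genes (horizontal, percent) that was expressed, low or listed at 0 in the 3 EGFP libraries; the number of genes counted stands in brackets, protein-coding genes except for gene segments and mitochondrially encoded genes. The bars run from proteasome, complex I and ribosomal protein genes, over 90% expressed, to receptor, defensin and segment families, over 90% listed at 0.

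The promoters of the classes differed in base composition. In the 250 bases before the start, RefSeq windows matched by symbol held a median of 18 CpG dinucleotides for 8508 expressed protein-coding genes, 7 for 2872 low genes and 2 for 5075 genes listed at 0 (quartiles 12 to 24, 3 to 15 and 1 to 7), taking the window with most CpG for a gene with several. The letters TATAAA, on either strand, were in 7.44%, 13.6% and 22.6% of them, and in 13.2% of all 16455 matched genes. Counted by single window, they were in 12.4% of all 32851 windows. Cell division genes had a median of 19 CpG and plasma protein genes one of 3. Eef1a1 and Alb are printed as examples of the ends of that range, 18 CpG at chr9:78481725-78481974 (minus strand) and 2 CpG at chr5:90460620-90460869 (plus strand), with each CG in capitals.
Eef1a1: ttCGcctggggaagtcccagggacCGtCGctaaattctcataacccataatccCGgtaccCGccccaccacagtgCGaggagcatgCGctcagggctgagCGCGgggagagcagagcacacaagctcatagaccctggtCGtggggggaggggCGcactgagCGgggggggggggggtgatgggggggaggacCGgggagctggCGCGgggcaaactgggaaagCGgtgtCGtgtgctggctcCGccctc
Alb: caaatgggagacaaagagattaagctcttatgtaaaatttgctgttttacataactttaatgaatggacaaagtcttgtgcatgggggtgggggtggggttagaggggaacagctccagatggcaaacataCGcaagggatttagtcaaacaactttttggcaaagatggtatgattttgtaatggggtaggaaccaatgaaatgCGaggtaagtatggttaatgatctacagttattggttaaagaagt
GC content was 68% in the first and 39.2% in the second. These are counts of letters in the reference genome of GRCm38.p6, and methylation was not measured.

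The libraries agreed closely, and the differences that remained lay mostly in EGFP 1. Among 8853 genes with a mean of at least 10 CPM, the highest library exceeded the lowest by a median of 1.11-fold, 85 genes by over 1.5-fold and 7 by over 2-fold. The libraries are not copies of each other: the chi-square of their counts, divided by its degrees of freedom, was 5.91 between EGFP 1 and 2, 4.44 between EGFP 1 and 3 and 2.91 between EGFP 2 and 3, where sampling alone gives about 1. Across genes, which are not independent replicates, Spearman's rho between libraries was 0.996 to 0.997. With a margin of 25%, by which the higher library must exceed the lower, 192 genes (2.17%) were lower in EGFP 1 than in both others and 42 (0.474%) were higher. For EGFP 2 these were 15 (0.169%) and 39 (0.441%), and for EGFP 3 they were 22 (0.249%) in each direction.

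The genes that varied most included interferon-stimulated genes. Such genes are induced by interferons and encode antiviral and antigen-presentation proteins. Of the 10 genes with the largest spread, 2 (Ifit3 and Mx1) are in the list of interferon-stimulated genes. Zbp1, a sensor of nucleic acids, was at 14.7, 30.7 and 32.3 CPM in EGFP 1, 2 and 3, and Tap2, the antigen peptide transporter, at 12.1, 26.5 and 25.6. Of the near-identical copies Ifit3b and Ifit3, the former was at 69.5, 138 and 145 CPM, the latter at 49.8, 95.9 and 96.3, Iigp1 at 10, 20 and 20.2, Mx1 at 13, 26.1 and 24.6, Phf11d at 7.59, 13.1 and 15.5 and the chemokine Ccl5 at 6.87, 13.6 and 11.4. In each of these EGFP 1 was the lowest library. The remaining genes were Acox2, the bile acid oxidase, at 19, 34.6 and 32.8 CPM, and the pseudogene Rpl15-ps2 at 9.38, 16.4 and 8.17, which was highest in EGFP 2.

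All 22 listed interferon-stimulated genes were expressed, against 48.8% of all protein-coding genes, with a median of 131.6 TPM. All 22 were lowest in EGFP 1, where 39.7% of the 8853 genes were. The median log2 ratio of EGFP 1 to the mean of the others was -0.43, and 16 of the 22 were lower by the 25% margin. B2m, the light chain of MHC class I, was at 3071, 3354 and 3724 TPM, Bst2 at 1076 ± 111, Ifit1 at 585, 770.2 and 812, Isg15 at 573, 735 and 718, H2-D1 at 582 ± 62.2 and H2-K1 at 339.8 ± 46.5. EGFP 2 and 3 lay close together for Ifit1 and Isg15 and further apart for B2m. The summed level of the list ran from 3469.5 CPM in the lowest library to 4636 in the highest. All 3 libraries come from cells given the same EGFP construct, and the part of transfection in these levels was not tested.

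The motif of GAAA, any 2 bases and GAAA is the core of the element through which interferon acts on promoters. It was in the 250 bases before the start of 9 of 18 matched genes of that list, on either strand. Counted by gene in the same way, it was in 3.55% of all 16455 matched protein-coding genes. Counted by single window, it was in 2.98% of the 32851 windows. Ifit3, which varied strongly, and Isg15, among the highest of the list, are printed with each match in capitals, at chr19:34583279-34583528 (plus strand) and chr4:156200819-156201068 (minus strand). Overlapping matches are counted apart, and the match in capitals reads on the opposite strand in Ifit3.
Ifit3: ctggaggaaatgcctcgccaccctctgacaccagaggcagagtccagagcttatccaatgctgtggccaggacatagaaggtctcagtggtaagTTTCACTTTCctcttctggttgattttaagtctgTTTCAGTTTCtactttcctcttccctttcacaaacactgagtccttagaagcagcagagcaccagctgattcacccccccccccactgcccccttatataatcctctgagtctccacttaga
Isg15: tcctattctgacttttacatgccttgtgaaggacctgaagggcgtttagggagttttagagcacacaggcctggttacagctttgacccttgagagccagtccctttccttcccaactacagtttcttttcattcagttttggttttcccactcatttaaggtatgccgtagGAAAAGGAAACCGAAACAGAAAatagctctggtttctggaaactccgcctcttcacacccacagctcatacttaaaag
Ifit3 holds 2 matches, starting 156 and 122 bases before the start, and Isg15 holds 3 that overlap each other, from 78 to 66 bases before it.

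Lipid synthesis genes lay on the other side, by smaller amounts. Of 20 cholesterol synthesis genes with a mean of at least 10 CPM, 16 were highest in EGFP 1, where 33.9% of all such genes were, and 4 were higher by the 25% margin, with a median log2 ratio of 0.22. Msmo1 was at 92.4, 66.1 and 71 CPM in EGFP 1, 2 and 3 and Sqle, the squalene epoxidase, at 63.5, 48.4 and 49.5. Of 17 fatty acid and triglyceride synthesis genes 14 were highest in EGFP 1, with a median of 0.15, and 2 passed the margin. For the hepatocyte transcription factors the median was -0.09, and 0 of 23 passed the margin in either direction.

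**Figure D5:**
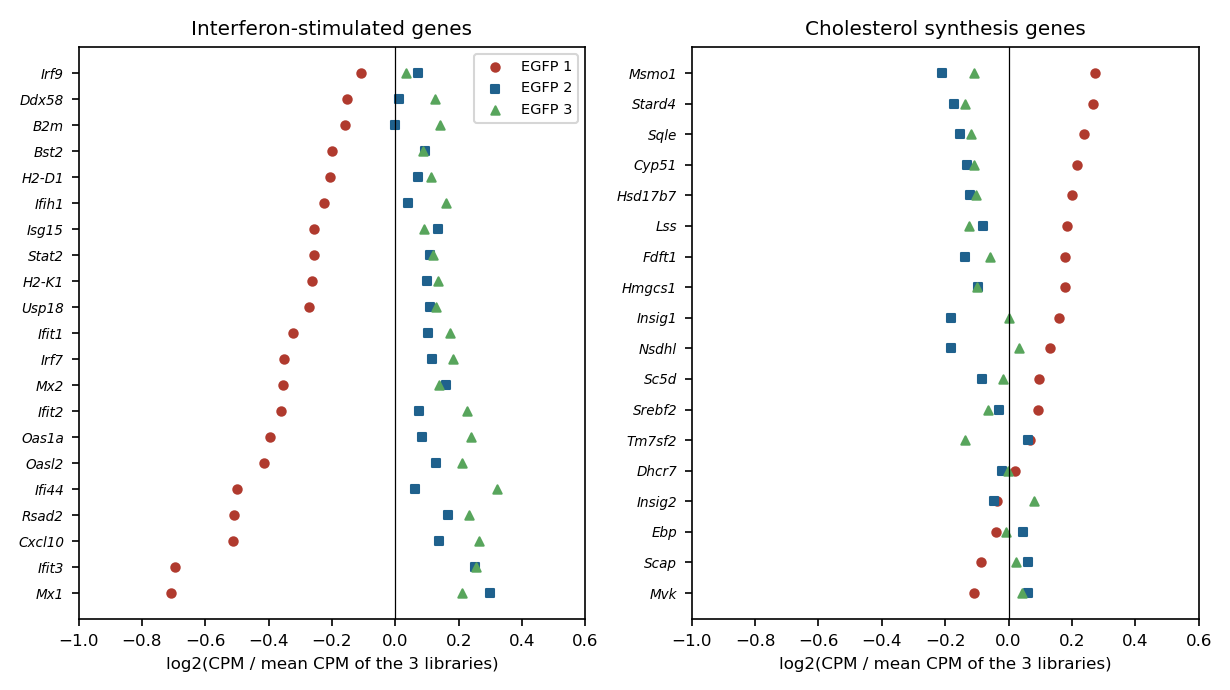
log2 of each library's CPM over the mean CPM of the 3 EGFP libraries (horizontal) for 21 interferon-stimulated and 18 cholesterol synthesis genes with a mean of at least 10 CPM (vertical); red circles are EGFP 1, blue squares EGFP 2 and green triangles EGFP 3. EGFP 1 lies left of the others for 21 of 21 interferon-stimulated genes drawn and right of them for 14 of 18 cholesterol synthesis genes drawn.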

How the data were processed

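Per the labels' protocols, RNA of AML12 cells was DNase-treated and made into directional libraries. The authors deposited 1 table of whole-number counts per gene, a column per library. It is called normalized where deposited, but library totals differ and low whole numbers are all present, so its values were taken as unscaled counts. The tools named in the submitters' processing notes are FastQC, STAR, HTSeq and DESeq2. The sources used here give no version, genome build or use of strand in counting, so reads of overlapping genes on opposite strands may not be told apart. Of 49585 Ensembl IDs, 49326 matched GENCODE M21 (GRCm38), the source of symbols, types, coordinates and exon lengths; the 259 others held 0.0112% of reads.

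CPM divides by the library total and TPM by the union of exons first (Python 3.11.15, pandas 2.3.3). TMM factors, from edgeR 4.0.16, were 0.994 to 1.003. The level and class steps were tested on simulated data. No significance test was made, since only 1 group is described. Promoter windows were RefSeq's, cut to the 250 bases before the start. Pooling 3 libraries, 1 read is worth 0.022 CPM.

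The text names the 25 protein-coding genes with highest mean CPM, the isozymes, up to 6 members of each list by TPM with those at 0, members of the factor, plasma, duct, epithelial and mesenchymal lists, up to 4 of each family, and the 10 most variable genes above 10 CPM; others were chosen after their values were seen, and some listed genes, counted in their lists, are not reported here. Members and lists were chosen with earlier results of these data known. Alternatives were other thresholds, TPM in place of CPM, TMM scaling, totals without mitochondrial genes, transcript length and leaving out each library.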

Additional observations from a re-analysis of the deposited data

How the results depend on the processing

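The number of expressed genes, 11135, ran from 9648 at 5 CPM to 11800 at 0.5 CPM and was 11437 with a mean of 1 CPM, 11573 at 1 TPM, 11135 with TMM scaling and 11157 without mitochondrial genes in the total. Leaving out a library gave 11198 to 11275 genes. Genes listed at 0 numbered 34271 when up to 3 reads were allowed and 31407 to 31434 with a library left out. The share of the top 100 genes, 16.7% of reads, was 15.8% without mitochondrially encoded genes and 26.6% of TPM, as long transcripts count for less. Over all lists 439 entries were expressed, 389 at 5 CPM and 463 at 0.5 CPM; plasma proteins went from 20 to 11 at 5 CPM. Counting the 2 steps with a form listed at 0, the other form of an isozyme was higher in 15 steps, 14 in CPM, and 16 without EGFP 1, where arginase turned. The median SD of log2(CPM + 1) was 0.0749, with 0.0529 without EGFP 1, 0.0588 without EGFP 2 and 0.0723 without EGFP 3. No paired analysis was possible because only 1 group is described and its replicate numbers are shared with no other group. Genes near 1 CPM rest on about 15 reads a library.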

Other observations

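Signalling ligands were expressed in small sets, from 9.09% of FGF genes to 37.1% of chemokine genes, against 48.8% of all protein-coding genes. Of 19 Wnt ligand genes 5 were expressed, Wnt10a at 144, 143 and 139 TPM in EGFP 1, 2 and 3, Wnt4 at 62.6 ± 2.33, Wnt7a at 51.2 ± 0.899 (SD, n = 3), Wnt7b and Wnt9a. Of 35 protein-coding chemokine genes 13 were expressed, led by Ccl2, which attracts monocytes, at 273, 281 and 315 TPM, and of 33 interleukin genes 6 were, led by Il33 at 56.9 ± 2.6 and Il34 at 17.2 ± 0.982. Of 22 FGF genes 2 were expressed, Fgf13 at 23 ± 0.543 and Fgf1 at 11 ± 1.48 TPM. Among cadherins Cdh6, a cadherin of kidney, was at 133, 118 and 116 TPM, between Cdh1 and Cdh2, and the intestinal cadherin Cdh17 was at 40 ± 3.02.

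Genes of position and of other organs with reads in every library were Hoxb13 (73, 91 and 63 reads), Hoxb4 (75, 61 and 72) and Hoxb3 (80, 97 and 95), 3 of the 4 Hox genes expressed, and the placental prolactin gene Prl2c3 (129, 87 and 74), whose family holds close copies. The T cell receptor constant segment Trdc had 371, 308 and 305 reads and Trac 17, 23 and 21, while Cd3e, Cd3g and Cd4 had 0. Y-linked genes had few reads, Ddx3y 11, 23 and 12, Eif2s3y 14, 3 and 10, Uty 8, 10 and 2 and Kdm5d 10, 4 and 7, and Xist, the X inactivation RNA, had 1, 2 and 2. Outside protein-coding genes, 517 of 27592 genes were expressed and held 1.33% of the reads.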
